A study of Danio rerio with 6 samples.

Results

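Superoxide dismutases and catalase are the enzymes that remove superoxide and hydrogen peroxide. The 5 zebrafish genes considered are sod1, sod2, sod3a, sod3b and cat, found by symbol in the deposited count table with or without a numeric suffix. Each had a single entry, so 5 of the 53709 entries of the table belong to the group, and 4 of the 5 held enough counts to be tested. Messenger RNA was measured in the caudal fin blastema, the mass of dividing cells that regrows a cut fin, of male zebrafish 4 days after amputation. In 1 group, called ZnO here, the fish were kept in water with 2 mg/L of zinc oxide nanoparticles made with propolis extract (Pro-ZnO in the labels), and in the other, the controls, in distilled water. Amputation, sex and the 4-day interval were common to both groups, and neither genotype, strain nor age is given in the labels. Each fish had a beaker with 150 mL of water. Each group has 3 libraries, and the labels give 5 fish per group in triplicate without saying how many fish went into a library. P-values therefore measure the spread between libraries, which may be technical. The particles, the propolis extract and any dissolved zinc cannot be told apart, because no group received just 1 of them.

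A superoxide dismutase joins superoxide with protons to give hydrogen peroxide and oxygen, and catalase splits hydrogen peroxide into water and oxygen. The family is divided by place and metal: Sod1 works in the cytosol with copper and zinc, Sod2 in the mitochondrial matrix with manganese, and Sod3 is secreted and also carries copper and zinc. Catalase is a heme enzyme of peroxisomes and is abundant in red blood cells. In zebrafish, hydrogen peroxide forms at fin wounds, draws leukocytes to them and is among the early signals of regeneration.

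Libraries held 26624174 to 31712994 counts. Levels are given as counts scaled to a library total of 1000000 (CPM), scaled between libraries by the TMM method, whose factors lay between 0.981 and 1.02. Of 18 mesenchyme and blastema markers, 18 were tested, and the blastema transcription factor msx1b stood between 69.7 and 102 CPM. The median log2 fold change of the 25962 tested entries was 0.0148. In these bulk samples, fewer cells of a type and less RNA per cell cannot be told apart.

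The extracellular form sod3b had the largest log2 fold change of the 4 tested genes, with all 3 ZnO libraries above all 3 controls. cat and sod1 had higher means in ZnO with overlapping groups, and the means of sod2 were nearly the same. By edgeR's quasi-likelihood test with adjustment over all entries, 0 of the 4 passed an adjusted p of 0.05, where 111 of 25962 entries, or 0.428%, did (0.0963% higher and 0.331% lower). At an unadjusted p under 0.05 there was 1 of the 4, sod3b, against 15.9% of all entries. limma-voom called none of the 4, where it called 15 higher and 61 lower of the 25962 entries. DESeq2 called 1, again sod3b, against 4.62% of all entries. The libraries of the groups did not overlap at 1 of the 4 genes, close to the 22.5% of all tested entries at which they did not.

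**Figure D1:**
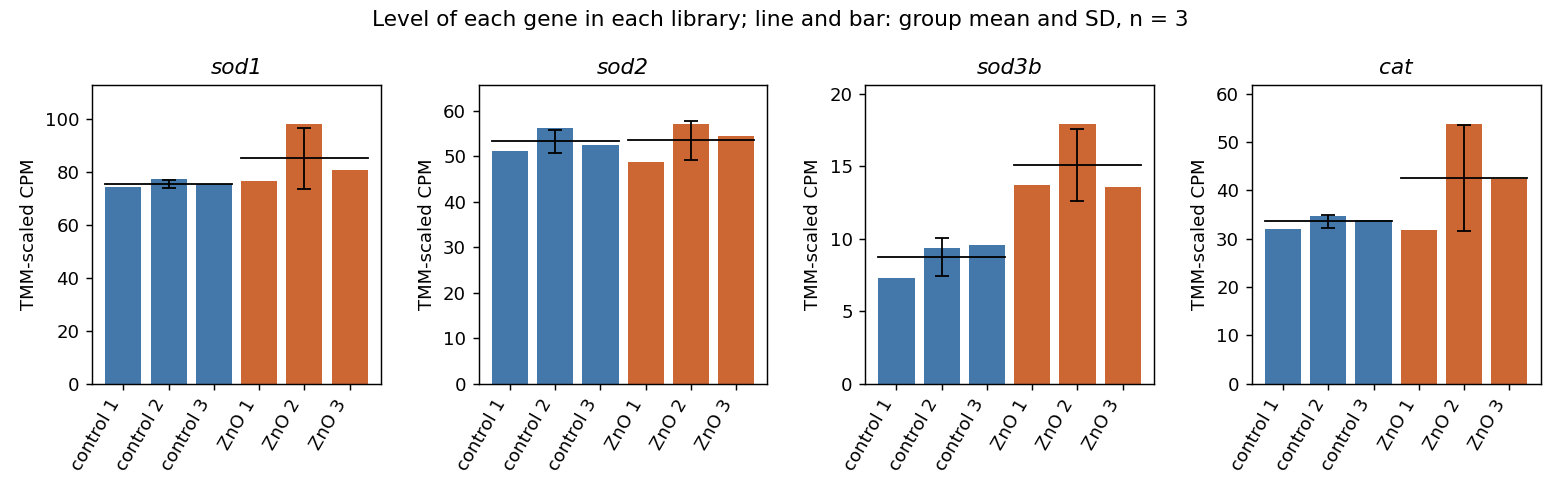
Level of sod1, sod2, sod3b and cat in each of the 6 libraries, as TMM-scaled CPM on axes that start at 0 and differ between genes. Horizontal lines are group means and error bars are SD over 3 libraries. The ZnO libraries of sod3b lie between 13.6 and 17.9 CPM, above the controls at 7.26 to 9.58, and ZnO 2 has the highest bar for each gene.

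sod1, the cytosolic copper and zinc enzyme, stood at 74.3, 77.3 and 75.4 CPM in controls 1 to 3 and at 76.8, 98.3 and 80.7 CPM in ZnO 1 to 3. Only ZnO 2 and ZnO 3 were above the highest control, and ZnO 1 lay among the controls. The control means and SD were 75.7 ± 1.57 CPM, and those of ZnO 85.3 ± 11.5 CPM (n = 3 each). The coefficient of variation over controls was 2.07%, the size that counting error alone gives at this depth (2.07%), and over ZnO libraries it was 13.5%. The log2 fold change was 0.17 ± 0.12 (SE), with a 95% interval from -0.11 to 0.45 (edgeR adjusted p = 0.538). On a linear scale the interval runs from -7.09% to 36.6%, ZnO relative to control. Without ZnO 2 the log2 fold change was 0.04.

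sod2, the mitochondrial manganese enzyme, stood at 51.1, 56.1 and 52.5 CPM in the controls and at 48.8, 57.1 and 54.5 CPM in the ZnO libraries. The groups overlapped, with ZnO 1 the lowest of all and ZnO 2 the highest. Its mean was 53.3 ± 2.60 CPM in controls and 53.5 ± 4.28 CPM in ZnO (SD, n = 3 each). The log2 fold change was 0.01 ± 0.11 (SE; edgeR adjusted p = 0.985), and its 95% interval, -0.24 to 0.25, corresponds to differences from -15.4% to 19.2%. The sign of so small a value turned in 7 of 15 alternatives, with a range from -0.06 to 0.06.

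The genes of secreted dismutase are sod3a and sod3b, and they differed in whether they were detected. sod3a had 0 counts in each control, in ZnO 1 and in ZnO 2, and 1 count in ZnO 3. The count of 0 over the 3 controls allows a level of up to 0.0332 CPM (3 counts over the group, counting error only), and a single count supports no comparison. The sod3b entry had 2060 counts over the 6 libraries.

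sod3b stood at 7.26, 9.37 and 9.58 CPM in the controls and at 13.7, 17.9 and 13.6 CPM in the ZnO libraries. The lowest ZnO library was 1.42 times the highest control, so the groups do not overlap. Means were 8.74 ± 1.28 CPM in controls and 15.1 ± 2.47 CPM in ZnO (SD, n = 3 each). The log2 fold change was 0.79 ± 0.17 (SE), a 1.72-fold higher level with a 95% interval from 1.31 to 2.27. This did not pass over all entries by edgeR (adjusted p = 0.0926, the p-value of rank 470 of 25962) and passed by DESeq2 (adjusted p = 0.00719). With 1 library left out the log2 fold change lay between 0.63 (without ZnO 2) and 0.86 (without ZnO 3), and edgeR did not call it in any of the 6 fits. A larger absolute log2 fold change was estimated for 9.26% of tested entries.

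The sod3b entry carries a limit of annotation that the others do not. In the RefSeq table of another assembly (GRCz12tu), the sod3b locus has 19 transcripts and overlaps 2 other genes, stox2a and ing2, while the other 4 genes have 1 transcript each and overlap none. How reads in shared stretches were assigned is not given in the sources used here. stox2a was at 24.6 ± 0.974 CPM in controls and 27.3 ± 2.12 in ZnO (SD, n = 3 each). For ing2 the values were 14.0 ± 0.218 and 15.3 ± 1.51 CPM. Both had overlapping groups, with log2 fold changes of 0.15 and 0.13, below that of sod3b (edgeR adjusted p = 0.557 and 0.664).

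cat, which encodes catalase, stood at 32.1, 34.8 and 33.9 CPM in the controls and at 31.8, 53.8 and 42.4 CPM in the ZnO libraries. ZnO 2 and ZnO 3 were above the controls, and ZnO 1 was below the lowest of them. The means were 33.6 ± 1.37 CPM in controls and 42.6 ± 11.0 CPM in ZnO (SD, n = 3 each), so the SD over ZnO libraries was larger than the difference of the means. The log2 fold change was 0.34 ± 0.18 (SE), with a 95% interval from -0.07 to 0.75 (edgeR adjusted p = 0.399). It was 0.13 without ZnO 2 and 0.51 without ZnO 1, and neither passed (edgeR adjusted p = 0.736 and 0.146).

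**Figure D2:**
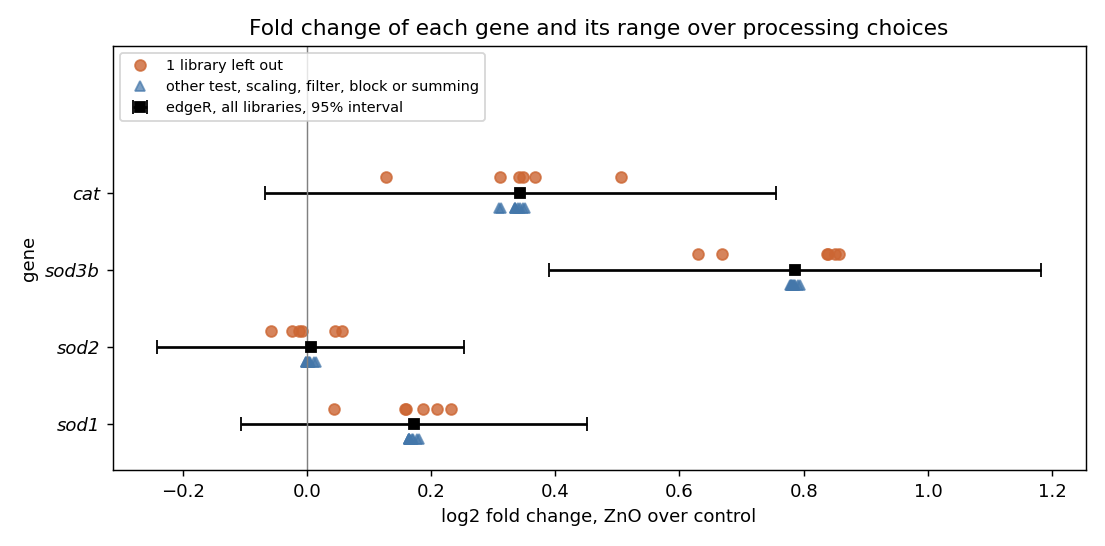
Log2 fold change of each gene, ZnO over control, with the 95% interval of the edgeR fit to all libraries (black), the fits that leave out 1 library (orange circles) and the other alternatives (blue triangles). The values of sod3b lie between 0.63 and 0.86 and those of cat between 0.13 and 0.51, while those of sod2 lie on both sides of 0.

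Library ZnO 2 was the highest of the 6 for sod1, sod2, sod3b and cat, and the 5 genes together summed to 227 CPM there. The sum was 165 to 178 CPM in controls, 171 CPM in ZnO 1 and 191 CPM in ZnO 3. ZnO 2 also had the fewest counts, and the smallest scaling factor.

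Ratios between genes within a library do not depend on how libraries are scaled, and show which genes differed relative to each other. They are ratios of counts and are compared between groups only, since counts of different genes also depend on transcript length. The ratio of sod3b to sod1 counts was 0.0977, 0.121 and 0.127 in the controls and 0.179, 0.182 and 0.168 in the ZnO libraries. The ZnO libraries were close to each other and above all controls, including ZnO 2, where both genes were high. On the log2 scale this ratio was 0.62 ± 0.12 (SE) higher in ZnO.

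Relative to sod2, both sod1 and cat were higher in the ZnO libraries. The ratio of sod1 to sod2 counts was 1.45, 1.38 and 1.44 in the controls and 1.57, 1.72 and 1.48 in ZnO, a log2 difference of 0.16 ± 0.07 (SE). The ratio of sod2 to cat counts was 1.59, 1.61 and 1.55 in the controls and 1.54, 1.06 and 1.29 in ZnO, with a log2 difference of -0.31 ± 0.15 (SE). Groups did not overlap for either ratio, though ZnO 3 lay close to the controls in the first and ZnO 1 in the second. ZnO 2 lay furthest from the controls in both. The share of the 5 genes' counts held by sod2 was 31.1% ± 0.487 in controls and 27.4% ± 1.95 in ZnO, and that of sod3b was 5.09% ± 0.612 and 7.67% ± 0.504 (SD, n = 3 each).

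Groups did not overlap in 5 of the 6 ratios that the 4 genes allow, the exception being sod1 to cat. Ratios of other entries to the same genes give the background. Of all other tested entries, 67.9% had non-overlapping groups as a ratio to sod3b, 23.1% to sod1, 20.0% to sod2 and 18.8% to cat. For the 5 ratios an exact two-sided permutation test gave p = 0.1, the smallest that 3 against 3 libraries allow. After Benjamini-Hochberg adjustment over the 6 ratios it was 0.12. Groups that do not overlap always give this smallest p, so the test adds nothing to the lack of overlap. For sod1 to cat the exact permutation p was 0.4.

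**Figure D3:**
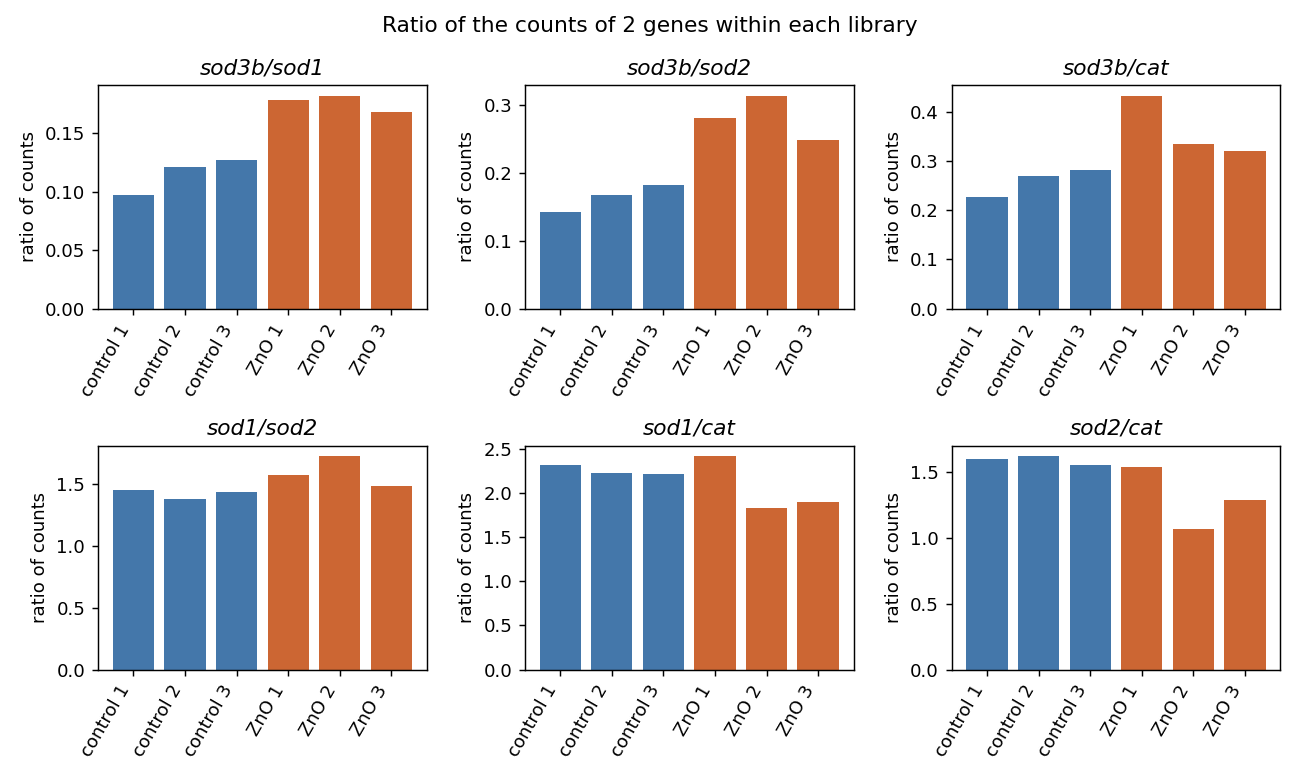
Ratio of the counts of 2 genes in each of the 6 libraries, for the 6 pairs of tested genes, with controls in blue and ZnO in orange. All 3 ratios with sod3b are higher in all ZnO libraries than in any control, and the ratio of sod1 to cat is higher in ZnO 1 and lower in ZnO 2 and ZnO 3 than in the controls.

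Genes that supply metals to the dismutases, listed with genes that bind or sense metals, were compared next. Over all tested entries, the background for this and the later lists, 15.9% had an unadjusted edgeR p under 0.05. DESeq2 called 4.62%, and 22.5% had groups that did not overlap. Of 9 tested genes of copper delivery, which include metallothionein and its metal-responsive regulator mtf1, 1 was higher and 0 lower by edgeR, with a median log2 fold change of 0.13. The 1 was mt2, a metallothionein that binds zinc and copper, at 3.98 to 5.58 CPM in controls and 13.1 to 20.8 CPM in ZnO (log2 fold change 1.78 ± 0.21, SE; edgeR adjusted p = 0.0249). It was also the 1 gene of the list whose groups did not overlap. Its less abundant entry, mt2_1, was at 0.917 to 2.22 CPM in controls and 4.65 to 6.28 CPM in ZnO, and did not pass (edgeR adjusted p = 0.0675). With 1 library left out, edgeR called mt2 only without ZnO 1, and without control 1, 2 or 3, ZnO 2 or ZnO 3 its adjusted p lay between 0.0526 and 0.0867. ccs, the chaperone that loads copper into Sod1, was scarce, at 0.821, 1.51 and 2.78 CPM in controls and 3.02, 2.11 and 1.30 CPM in ZnO, with overlapping groups (edgeR adjusted p = 0.789). Of 5 tested manganese transport genes 0 passed by edgeR, DESeq2 or an unadjusted edgeR p under 0.05 (median -0.20). For 2 of them, both lower in ZnO, groups did not overlap. In that list slc39a14, an importer of manganese and zinc, stood at 5.22 to 6.83 CPM in controls and 4.71 to 5.15 CPM in ZnO (edgeR adjusted p = 0.469).

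Genes around catalase in the peroxisome showed no call by edgeR. Of 20 genes of peroxisome import and membrane, 0 passed, 2 were higher and 1 lower at an unadjusted p under 0.05, and DESeq2 called 1 higher (median log2 fold change 0.06). Groups did not overlap for 3 of these genes that were higher and 1 that was lower. pex5 encodes the receptor that brings catalase into peroxisomes. Its most abundant entry was at 11.2 to 16.3 CPM in controls and 9.01 to 11.7 CPM in ZnO (log2 fold change -0.45 ± 0.18, SE; edgeR adjusted p = 0.273), and its other 2 entries had log2 fold changes of -0.16 and 0.16. Of 6 tested peroxisomal oxidation genes, 0 passed by edgeR or DESeq2 and 1 was higher at an unadjusted p under 0.05 (median 0.14). This was phyh, an enzyme of branched fatty acid breakdown, at 16.9 to 20.8 CPM in controls and 22.4 to 24.0 CPM in ZnO. phyh was also the 1 tested gene of that list whose groups did not overlap.

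Among enzymes that make superoxide or hydrogen peroxide, the substrates of the dismutases and catalase, 12 of 15 tested genes had negative log2 fold changes. For 7 of the 15, all lower in ZnO, groups did not overlap. The median was -0.58, against 0.0148 over all tested entries, and it was -0.30 without control 2 and -1.01 with no filter on low counts. In the fit to all libraries this median is the value of xdh (± 0.63, SE; edgeR adjusted p = 0.710). xdh was scarce, at 0.460 to 1.02 CPM in controls and 0.104 to 0.766 CPM in ZnO. ncf4, which encodes a phagocyte NADPH oxidase subunit, fell from 11.6 ± 2.40 to 3.89 ± 0.347 CPM (SD, n = 3 each; edgeR adjusted p = 0.0249), while its second entry had overlapping groups and a log2 fold change of -0.41. It was the 1 gene of this list past the edgeR threshold, where DESeq2 called 6 lower. With 1 library left out, ncf4 passed without control 2 or ZnO 1, and without control 1 or 3, ZnO 2 or ZnO 3 its edgeR adjusted p lay between 0.0526 and 0.116. Neutrophil markers moved with this list. Of 19 tested neutrophil markers 18 were negative and 4 fell by edgeR, and for 15, all lower in ZnO, groups did not overlap. The summed level of the neutrophil list was 772 to 884 CPM in controls and 259 to 388 CPM in ZnO, with no marker at 0 counts. Over all 8 cell type lists together, calls of lower markers, 4 in the fit to all libraries, numbered 1 without control 1 or control 2, 0 without control 3 or ZnO 3, 8 without ZnO 1 and 2 without ZnO 2. The 2 lists share NADPH oxidase genes, and the part of neutrophils in these values was not tested. Markers of macrophages, which are also phagocytes, were negative in 14 of 18 cases (median -0.42). None passed by edgeR, 2 were higher and 5 lower at an unadjusted p under 0.05, and DESeq2 called 2 lower. Their summed level overlapped between groups, at 5292 to 5666 CPM in controls and 5343 to 5937 CPM in ZnO. Most of this sum came from apoeb and cd74a, so it says little about the other markers. Groups did not overlap for 1 macrophage marker that was higher and 3 that were lower. The 1 was apoeb, an apolipoprotein gene, with higher levels in all ZnO libraries than in any control (log2 fold change 0.37, edgeR adjusted p = 0.229). The next most abundant marker, cd74a, went the other way, at 1665 to 2188 CPM in controls and 1237 to 1657 CPM in ZnO. By edgeR cd74a did not pass either (adjusted p = 0.319, log2 fold change -0.38).

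Other enzymes that remove peroxides were listed together with thioredoxin, glutaredoxin and reductase genes. By their most abundant entries, 0 of 21 tested genes passed by edgeR (median -0.03). There were 5 lower and 0 higher at an unadjusted p under 0.05, and 1 lower by DESeq2. The 5 were txnb, txn2, txnrd3, glrx and gpx4a, of which only gpx4a is a peroxidase gene. For 7 that were lower and 0 that were higher, groups did not overlap. Groups overlapped for prdx1 to prdx6 and, gpx4a aside, for the tested gpx genes. prdx2, a peroxiredoxin abundant in mammalian red blood cells, stood at 108, 116 and 108 CPM in controls and 113, 125 and 102 CPM in ZnO, with overlapping groups (log2 fold change 0.04 ± 0.11, SE; edgeR adjusted p = 0.913). The thioredoxin gene txnb has 2 entries. The more abundant, txnb_1, stood at 39.5 to 52.5 CPM in controls and 12.3 to 23.5 CPM in ZnO (edgeR adjusted p = 0.0778), and the other, txnb, fell from 38.3 ± 4.64 to 14.6 ± 2.35 CPM (SD, n = 3 each; edgeR adjusted p = 0.0191). The call on txnb ended without control 1, control 2 or ZnO 3 (edgeR adjusted p = 0.0508, 0.0533 and 0.0742).

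Of 19 tested transcription factors and partners that act on antioxidant genes, 0 passed by edgeR, with 1 higher and 2 lower at an unadjusted p under 0.05 and 1 in each direction by DESeq2 (median -0.10). Groups did not overlap for 2 of the 19 that were higher and 3 that were lower. foxo3a, a forkhead factor whose mammalian counterpart activates the genes of Sod2 and catalase, was at 7.91 to 8.32 CPM in controls and 10.6 to 13.1 CPM in ZnO (log2 fold change 0.58 ± 0.14, SE; edgeR adjusted p = 0.116). The more abundant related gene foxo3b had overlapping groups, at 51.6 to 75.0 CPM in controls and 71.8 to 81.3 CPM in ZnO (edgeR adjusted p = 0.349). keap1a, a repressor of Nrf2, was at 27.9 to 34.1 CPM in controls and 19.1 to 22.3 CPM in ZnO (log2 fold change -0.55 ± 0.12, SE; edgeR adjusted p = 0.0999). keap1b, a related and more abundant gene, had overlapping groups, at 45.9 to 51.9 CPM in controls and 44.8 to 55.6 CPM in ZnO. Its log2 fold change was 0.04 (edgeR adjusted p = 0.908). The Nrf2 gene nfe2l2a was at 176 to 208 CPM in controls and 198 to 273 CPM in ZnO, with overlapping groups (edgeR adjusted p = 0.456). Among 10 genes of the mitochondrial matrix, where Sod2 works, 0 passed by edgeR or DESeq2 and 4 were lower at an unadjusted p under 0.05 (median -0.15). For 5 of the 10 that were lower and 2 that were higher, groups did not overlap. lonp1, a matrix protease, was at 24.8 to 28.6 CPM in controls and 16.8 to 21.8 CPM in ZnO (edgeR adjusted p = 0.194), beside the level of sod2, whose groups overlapped.

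**Figure D4:**
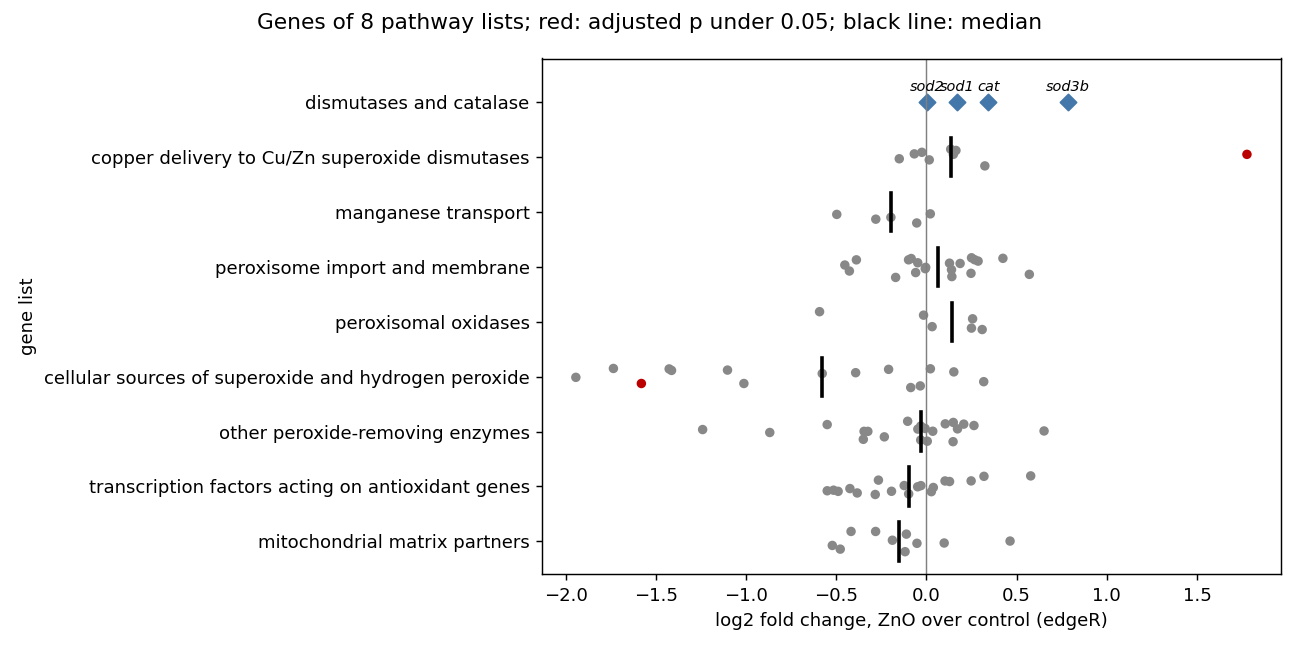
Log2 fold change, ZnO over control, of each tested gene in 8 pathway lists, by its most abundant entry. Circles are red where the edgeR adjusted p is under 0.05, black lines are list medians, and diamonds are the 4 dismutase and catalase genes. The red points are mt2 at 1.78 and ncf4 at -1.58. The list of superoxide and hydrogen peroxide sources has its median at -0.58, the value of the scarce gene xdh. The less abundant txnb entry, past the threshold at -1.40, is not shown.

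Because red blood cells hold much catalase, their markers are given beside cat. Of 20 erythrocyte markers 18 had an entry, hbbe1.1 was at 0 counts in all libraries, and 14 were tested. All 14 tested markers had positive log2 fold changes, 8 at an unadjusted p under 0.05, 0 past the edgeR threshold and 5 called higher by DESeq2. For 7 of these 14 markers, all higher in ZnO, groups did not overlap. Their summed level was 114, 28.8 and 151 CPM in the controls and 154, 409 and 346 CPM in the ZnO libraries. Most of this sum came from 2 globin genes, so it says little about the other markers. In ZnO 1 to 3, hbaa1 was at 51.7, 162 and 109 CPM and hbba1 at 72.6, 178 and 183 CPM. Within ZnO the order of the libraries by the sum was that of cat, with ZnO 2 highest and ZnO 1 lowest. sod1 and sod2 had this order too. Within controls the order of the erythrocyte sum was not that of cat: control 2 had the lowest erythrocyte sum and the highest cat level. The part of red blood cells in the level of cat was not tested.

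**Figure D5:**
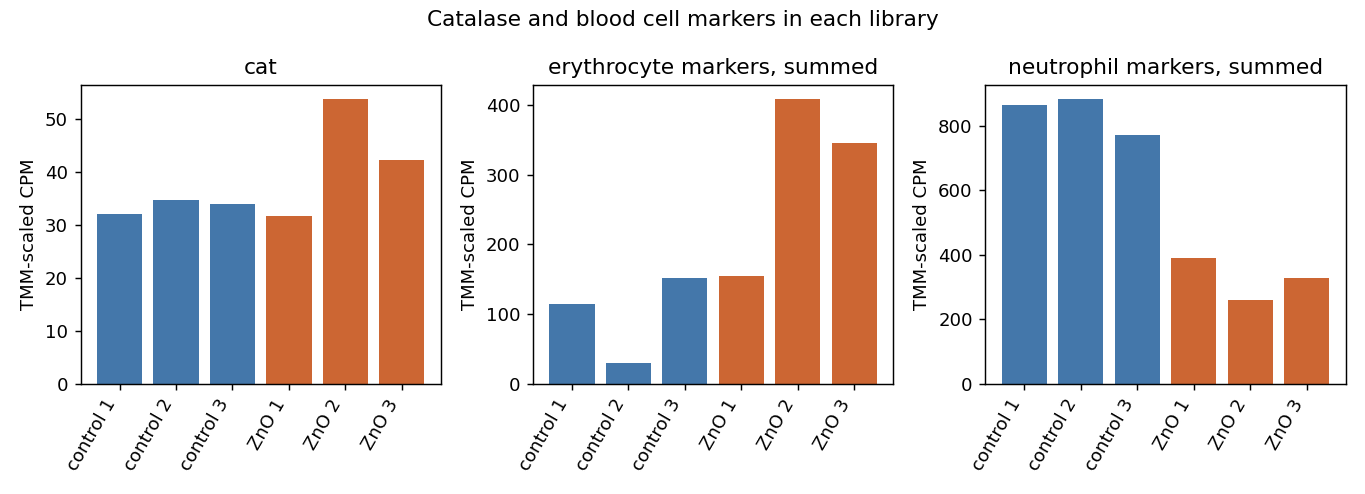
Level of cat, and summed level of the erythrocyte and of the neutrophil markers, in each of the 6 libraries as TMM-scaled CPM, with controls in blue and ZnO in orange. cat and the erythrocyte sum, 154 to 409 CPM in ZnO, share their highest library, ZnO 2, which has the lowest neutrophil sum, 259 CPM. ZnO 2 is also the highest library for sod1, sod2 and sod3b.

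Markers of vessels, where the mammalian secreted dismutase is abundant, are given beside sod3b. Of 18 tested endothelial and mural cell markers 11 had positive and 7 negative log2 fold changes (median 0.09). At an unadjusted p under 0.05, 4 were higher, where 15.9% of all tested entries passed in either direction. Of these markers 0 passed the edgeR threshold and 1 was higher by DESeq2. Their summed level was 540 to 570 CPM in controls and 601 to 621 CPM in ZnO, with no marker at 0 counts. plvapb, an endothelial gene, was at 49.9 to 53.3 CPM in controls and 61.1 to 65.3 CPM in ZnO (edgeR adjusted p = 0.186). notch3, a receptor of mural cells and the most abundant marker of the list, had overlapping groups, at 253 to 277 CPM in controls and 273 to 315 CPM in ZnO (edgeR adjusted p = 0.470). Groups did not overlap for 4 of the 18 markers that were higher and 2 that were lower in ZnO. Over all tested entries they did not overlap at 22.5%. The part of vessels in the level of sod3b was not tested.

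The entries whose pattern over the 6 libraries was most like that of each gene were found by the root mean square difference of centred log2 CPM, among 17387 named entries with a mean of at least 1 CPM. For sod3b they were cdk19 and lypd6, with differences of 0.09 each, where the median over all candidates was 0.47. In the controls lypd6 had 9.98, 12.3 and 12.3 CPM, and in the ZnO libraries 17.9, 20.1 and 16.5 CPM. For sod1 the closest was card19 (0.02, median 0.24), and for sod2 they were gapdhs and snrpd3_1 (0.02 each, median 0.22). For cat they were asb1 and arpp19a_1 (0.05 each, median 0.33), and arpp19a_1, like cat, was highest in ZnO 2, at 33.8 CPM. These entries were picked among many candidates over only 6 libraries, and their likeness is a description of these libraries.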

How the data were processed

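Per the labels' protocols, poly(A) RNA (integrity number over 7.0) was read in pairs of 150 bases. The authors deposited raw counts per gene entry for 6 libraries, not normalized. Cutadapt, BWA, HTSeq and DESeq2 are named with the GRCz11 build, per the submitters' processing notes. For versions, annotation, strand setting and multiply placed reads, nothing is stated in the sources used here. The same holds for spliced reads, which BWA does not split.

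Entries were filtered with filterByExpr (minimum count 10), which left 25962 holding 99.9% of counts. After TMM scaling, edgeR's quasi-likelihood test was fitted with the 2 groups and robust estimation. P-values were adjusted by Benjamini-Hochberg over all tested entries, with a threshold of 0.05. SE is the log2 fold change over the root of F, and 95% intervals use its t distribution. Floors from counts cover counting error only. List genes with several entries are given by the most abundant entry, a choice made after the table was opened, and 253 of 260 list genes had an entry. The 5 genes matched a RefSeq gene table (GRCz12tu) by symbol, which was used for names and overlaps only.

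The members, the lists and the rule for named genes were chosen with earlier results of these data known. The rule names each member, the genes of each pathway list past the threshold, the 2 with the smallest p, ccs, pex5, prdx2, nfe2l2a and keap1a, the 2 most abundant markers of each cell type and the 2 entries most like each member. Of these, some are not reported here. msx1b, stox2a, ing2, keap1b, foxo3b, the second entries and the markers at 0 were named after their values were seen. Alternatives were DESeq2, limma-voom, other scalings and filters, a replicate block, each library left out and entries of a symbol summed. The scripts were tested on simulated counts. No duplicate library was found. Tests ran in R 4.3.3 with DESeq2 1.42.0, limma 3.58.1 and edgeR 4.0.16, and figures in matplotlib 3.10.9 under Python 3.11.15.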

Additional observations from a re-analysis of the deposited data

How the results depend on the processing

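The log2 fold changes of sod1, sod3b and cat were positive in all 15 alternatives, and by edgeR and limma-voom none of them passed in any alternative. DESeq2 called sod3b (log2 fold change 0.78, adjusted p = 0.00719), where the range of adjusted p over alternatives was 0.00719 to 0.205. sod2 turned negative with DESeq2 (-0.0016), with its size factors in edgeR (-0.0016) and with a minimum count of 50 (-0.002), and ran from -0.058 (without ZnO 2) to 0.057 (without ZnO 1) with 1 library left out. Over all entries, 25 were higher and 86 lower. These counts were 425 and 774 by DESeq2, 15 and 61 by limma-voom, 122 and 283 with no filter, 13 and 54 with a minimum count of 50, and 3 and 29 with the replicate block. With 1 library left out they were 2 and 32 (control 1), 4 and 29 (control 2), 0 and 25 (control 3), 87 and 282 (ZnO 1), 2 and 26 (ZnO 2) and 0 and 12 (ZnO 3). Of pathway list genes, 1 was higher and 1 lower, against 3 and 8 by DESeq2, 1 and 2 with no filter, 1 and 2 with entries of a symbol summed, and 0 and 0 with the replicate block. With 1 library left out, 0 to 1 were higher and 0 to 4 lower. Of marker list genes, 0 were higher and 4 lower, against 12 and 15 by DESeq2, 3 and 7 with no filter, 0 and 0 with the replicate block, and 0 to 2 higher and 0 to 8 lower with 1 library left out. The cause of these differences was not tested. Libraries of the same number deviated together with correlations of 0.0143, -0.0490 and 0.0778, so the numbers were not taken to pair them. With the replicate block, the log2 fold change of sod3b was 0.79 (edgeR adjusted p = 0.120). Of 240 recomputed list medians 223 differed from the main fit by less than 1 SD, taken over the ZnO libraries only. That SD is of the list median in each ZnO library, relative to the control means. Depth limits sod3a, at 1 count in all. ccs, at 0.821 to 3.02 CPM, had 337 counts in all and is limited by its spread between libraries (1.71 ± 0.995 CPM in controls, SD, n = 3).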
